A study of Mus musculus with 9 samples.

Results

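The spleen is a lymphoid organ in which B cells fill the follicles and the marginal zone, T cells sit around the arterioles, and natural killer (NK) cells, macrophages, dendritic cells and blood cells occupy the red pulp and its borders. The plckGAPDH mouse carries an added copy of the glycolysis gene Gapdh behind the proximal Lck promoter, which is active in developing T cells and their descendants. RNA of a whole spleen records which cells are present as well as what each cell transcribes, and fewer cells of a type and less RNA per cell cannot be told apart in these data.

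Total RNA from splenocytes of C57BL/6 mice older than 18 months was compared in 7 spleens. They were 3 wild-type spleens (animals 1, 4 and 5) and 4 spleens of plckGAPDH mice. The latter were those of animals 343, 547 and 508, and 1 whose data column carries no animal number, called the unnumbered spleen. Whether that column came from an animal of its own is not stated, and it was counted as a separate replicate. Per the labels' protocol, the plckGAPDH mice were developing tumours. Genotype therefore cannot be told apart from tumour development, and the labels give no sex, stage or tumour cell share. The genes described are those left after T-cell and B-cell receptor segment genes, Gm-numbered genes, RP2 clones and mitochondrial genes were taken out by symbol, which kept 25479 of 46517 genes. The rule kept the 7 heavy-chain constant genes, such as Ighm and Ighg2c, and took out 1 protein-coding gene that is no receptor segment, Tradd. Of the kept genes, 11085 reached 1 rescaled FPKM (fragments per kilobase of gene, scaled to library size and divided by a per-library factor) in at least 3 spleens and were tested. A gene under 1 in all 4 plckGAPDH spleens, such as Ncr1, Cd209a or Pxdc1, could pass only through all 3 wild-type spleens. Its lower level without overlap was thus fixed by the filter. Such genes were left in the list counts and in the shares of all genes below. Conversely, genes under 1 in all 3 wild-type spleens, such as Cd70 and Rundc3a, passed only through plckGAPDH spleens.

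The estimated depth was 23900000 to 34500000 fragments per spleen, so that 1 FPKM of a 1-kilobase gene stood for 23.9 to 34.5 fragments. B-cell and T-cell markers were present in all 7 spleens, with summed rescaled FPKM of 221 to 758 for 4 B-cell markers and 64.0 to 407 for 5 T-cell markers. Several libraries stood apart by their other cells. Wild-type spleen 5 held red-cell precursor RNA, with a summed erythroid marker level of 36875 against 2.11 to 981 in the other 6, and was the only spleen with the Y-linked gene Eif2s3y (30.5 FPKM as deposited, 0 elsewhere). Xist, made from the inactive X of females, stood at 0.09 FPKM as deposited there against 35.84 to 59.71 in the other 6. By these genes wild-type spleen 5 was male and the other 6, all plckGAPDH spleens among them, female. Neutrophil markers summed to 5.26 in wild-type spleen 4 and to 3054 in wild-type spleen 1, against 594 to 1893 in the plckGAPDH spleens. Markers of the exocrine pancreas, an organ that lies against the spleen, summed to 154 in wild-type spleen 1 and 175 in plckGAPDH spleen 343 and to 2.39 to 11.9 in the other 5. The part of these differences in the results below was not tested, except where values without a library are given.

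Gapdh itself stood at 273, 468 and 276 rescaled FPKM in wild-type spleens 1, 4 and 5, and at 457, 689, 724 and 759 in plckGAPDH spleens 343, 547, 508 and the unnumbered spleen. Values below keep this order. Wild-type spleen 4 lay above plckGAPDH spleen 343, so the groups overlapped after rescaling. As deposited they did not, at 299, 348 and 338 FPKM against 430, 890, 505 and 894. The log2 fold change on rescaled values was 0.97 (SE 0.34, limma FDR 0.291), which did not pass the threshold of 0.05. Gapdh passed it in 1 of 17 alternatives (limma FDR 0.048).

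Of the genes tested, 28 passed a limma FDR of 0.05, or 0.253%: 8 were higher in plckGAPDH spleens (0.0722%) and 20 were lower (0.18%). The FDR was adjusted over the whole table of 12608 tested genes, receptor genes included. When only the kept genes entered the fit and the adjustment, which left out 117 called genes of the excluded classes, none passed, the smallest FDR was 0.108, and 1422 had an unadjusted p under 0.05. None passed either when wild-type spleen 5 was left out (837 had an unadjusted p under 0.05 there), and leaving out wild-type spleen 1 left 1 higher and 3 lower, none of them among the 28. All 28 kept their direction in every alternative in which they were tested. Without rescaling, as deposited, 16 genes were higher and 22 lower, so that 42.1% rather than 28.6% of the calls were higher.

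The largest fall among the calls was that of Cr2. This gene, which encodes complement receptors CD21 and CD35 of follicular and marginal zone B cells and of follicular dendritic cells, stood at 141, 14.8 and 119 rescaled FPKM in the wild-type spleens and at 0.735, 0.108, 0.201 and 1.09 in the plckGAPDH spleens. The lowest wild-type spleen was still above every plckGAPDH spleen. Wild-type spleens averaged 91.6 ± 67.4 (SD, n = 3), plckGAPDH spleens 0.533 ± 0.461 (SD, n = 4). On the log2(rescaled FPKM + 1) scale, on which all fold changes here are given and which understates changes of low genes, Cr2 fell by 5.45 (SE 0.73, limma FDR 0.0159). Cd55, the decay-accelerating factor that limits complement on the cell surface, stood at 73.4, 34.0 and 100.4 against 6.33, 13.4, 8.22 and 5.41, and fell by 2.85 (SE 0.42, limma FDR 0.0227). Ell3, an RNA polymerase II elongation factor of the ELL family, stood at 17.7, 7.72 and 15.05 against 1.85, 0.503, 2.02 and 1.82, and fell by 2.49 (SE 0.36, limma FDR 0.0191). Cnn3, the actin-binding protein calponin 3, stood at 20.5, 7.21 and 38.4 against 0.426, 0.681, 1.32 and 0.866, and fell by 3.41 (SE 0.49, limma FDR 0.0193). In each of these 4 genes wild-type spleen 4 was the lowest of the wild-type spleens.

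Satb1 and several genes of signalling proteins and receptors were also among the lower calls. Satb1, a chromatin organiser of T-cell development, stood at 24.7, 36.3 and 47.1 against 6.52, 1.85, 2.57 and 7.92, and fell by 2.81 (SE 0.45, limma FDR 0.0304). Rasgrp2, the Rap1 activator CalDAG-GEFI of platelets and lymphocytes, stood at 64.8, 41.3 and 87.3 against 20.7, 20.9, 17.6 and 18.4, and fell by 1.62 (SE 0.27, limma FDR 0.0363). The 4 plckGAPDH values of Rasgrp2 lay close together. Another exchange factor for Rap, Rapgef4, fell by 2.33 (SE 0.31, limma FDR 0.0158). The receptor genes A630033H20Rik, now P2ry10b, and Lpar6, receptors of lysophospholipids, fell by 2.15 (SE 0.25) and 1.47 (SE 0.23). Calcrl, the receptor component for adrenomedullin and CGRP, fell by 2.10 (SE 0.33), from 8.67, 5.99 and 13.5 to 2.28, 0.627, 1.09 and 1.60. Irak3, an inhibitory kinase-like protein of Toll-like receptor signalling, fell by 1.84 (SE 0.25), from 10.2, 5.54 and 7.09 to 1.81, 0.851, 1.56 and 1.28. Samd9l, an interferon-inducible gene that restrains growth, stood at 50.9, 45.9 and 61.2 against 10.51, 8.88, 4.63 and 15.6, and fell by 2.39 (SE 0.36, limma FDR 0.0230). Other lower calls included Pxdc1, 9930111J21Rik2, the NK receptor genes Klrc2, Klre1 and Klra13-ps, and the genes BC094916 and Pydc3 described further on.

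None of the 8 higher calls belonged to any of the 43 gene lists described here. Hmgn3, a nucleosome-binding protein, stood at 10.3, 10.8 and 8.37 against 54.7, 31.3, 43.1 and 40.6, and rose by 1.98 (SE 0.23, limma FDR 0.0105). Alpl, tissue-nonspecific alkaline phosphatase, stood at 1.21, 1.22 and 0.806 against 5.53, 18.9, 33.7 and 12.3, and rose by 2.92 (SE 0.51, limma FDR 0.0443). Its plckGAPDH values spanned a wide range, lowest in spleen 343, without reaching the wild-type spleens. Nek6, a kinase of mitotic spindle formation, stood at 1.19, 1.05 and 1.60 against 9.48, 7.44, 17.2 and 5.39, and rose by 2.15 (SE 0.35, limma FDR 0.0320). Prdx3, the mitochondrial peroxiredoxin that removes hydrogen peroxide, stood at 19.0, 12.6 and 22.8 against 43.7, 78.9, 62.1 and 54.2, and rose by 1.68 (SE 0.29, limma FDR 0.0395). Maged1 rose by 1.69 (SE 0.23), Rundc3a by 1.59 (SE 0.26), the inositol monophosphatase gene Impa2 by 1.31 (SE 0.20) and the hydrolase gene Serhl by 1.22 (SE 0.16). Serhl was the most even of them, at 5.89, 5.85 and 5.86 against 15.9, 16.03, 14.2 and 14.1.

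**Figure D1:**
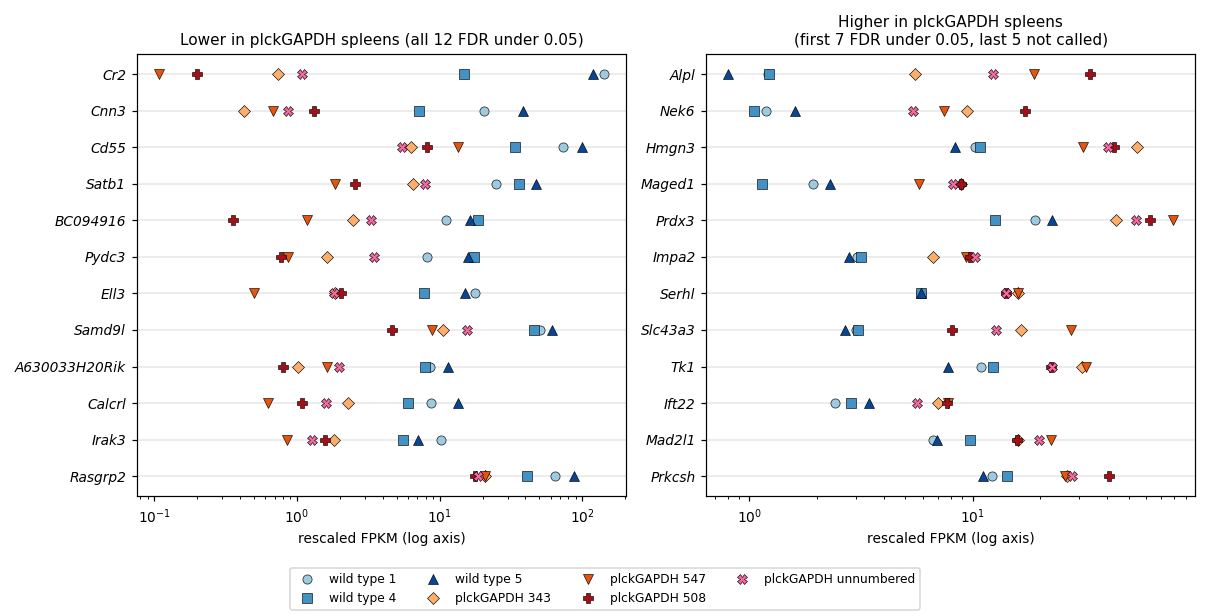
Rescaled FPKM (log axis) of the 12 lower and 12 higher genes with groups that did not overlap, 1 point per spleen. Cr2 spans 14.8 to 141 in wild-type spleens and 0.108 to 1.09 in plckGAPDH spleens; the last 5 genes of the right panel did not pass the FDR threshold.

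Just outside the threshold on the higher side were Slc43a3, a nucleobase transporter (2.01, SE 0.36, limma FDR 0.0505), and Tk1, the thymidine kinase of S phase (1.31, SE 0.24, limma FDR 0.0531). Tk1 stood at 10.9, 12.3 and 7.78 against 30.9, 32.4, 22.5 and 22.6. Alpl, at an FDR of 0.0443, was among the last inside it. In gene coordinates of GRCm38 (mm10), Cr2 spans positions 195136811 to 195176716 and Cd55 130439027 to 130462744 of chromosome 1, Cnn3 121426497 to 121458207 of chromosome 3, Satb1 51736187 to 51833290 of chromosome 17, Hmgn3 83109948 to 83146685 of chromosome 9 and Alpl 137741733 to 137796384 of chromosome 4. The values are per whole gene, so exons and introns are not separated.

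Among B-cell genes, those of follicular and marginal zone cells lay further from 0 than those of all B cells. Of 20 follicular and marginal zone B-cell genes, all measured and tested, 2 passed the FDR (Cr2 and Cd55), 10 were lower at an unadjusted p under 0.05, against 5.85% of all genes, and none was higher. The groups did not overlap for 7 of the 20, all lower in plckGAPDH spleens, against 6.44% of all genes. The list's median log2 fold change was -1.16, between -1.52 and -0.83 when single spleens were left out, and -1.38 with wild-type spleen 1 as the sole wild-type spleen. The median over all genes was 0.04. Fcer2a, the low-affinity IgE receptor CD23 of follicular B cells, named after its values were seen, stood at 37.9, 23.6 and 87.5 against 1.14, 0.170, 14.1 and 0.688 (-3.96, SE 0.88, limma FDR 0.105). Mzb1, a secretory chaperone of marginal zone B cells and plasma cells, went the other way, at 79.0, 34.5 and 42.1 against 25.1, 94.96, 802 and 61.8 (1.09, SE 1.04, limma FDR 0.666). The 20 B-cell identity genes had a median of -0.27, with 2 lower at an unadjusted p under 0.05. That median lay between -0.80 and 0.05 when single spleens were left out, the latter without wild-type spleen 1. With wild-type spleen 1 as the sole wild-type spleen it was -0.98, nearer to the -1.38 of the follicular and marginal zone list. Cd79b, a B-cell receptor signalling subunit, stood at 442, 164 and 578 against 232, 276, 343 and 228, which overlap. Ebf1, a transcription factor that sets B-cell fate, stood at 29.2, 8.87 and 19.8 against 3.99, 3.88, 4.36 and 3.33 (-1.91, SE 0.36, limma FDR 0.0607). Ebf1 was the 1 identity gene without overlap. The difference between the lists was not tested.

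Germinal centre genes showed no common direction: 9 of 15 tested had a positive fold change and the median was 0.19. Stap1, an adaptor of B-cell signalling, stood at 36.2, 37.6 and 40.2 against 14.7, 14.2, 4.86 and 17.3 (-1.62, SE 0.39, limma FDR 0.138), without overlap. Lmo2, a LIM-domain protein of germinal centre cells, overlapped, at 35.0, 20.04 and 39.4 against 11.1, 64.6, 25.6 and 14.4.

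Genes of T-cell identity and of naive and early T cells had negative fold changes without exception among those tested. All 14 tested of 18 naive and early T-cell genes were negative, with a median of -1.38 (-1.64 to -1.12 without single spleens). Satb1 passed the FDR, and 9 were lower at an unadjusted p under 0.05, against 5.85% of all genes. The groups did not overlap for 6, all lower, against 6.44% of all genes. Il7r, the interleukin-7 receptor that keeps naive T cells alive, stood at 18.4, 49.7 and 23.3 against 9.02, 1.73, 3.34 and 6.84 (-2.38, SE 0.51, limma FDR 0.0996). S1pr1, the receptor that lets lymphocytes leave lymphoid organs, overlapped. The 20 T-cell identity genes were all negative, with a median of -0.86, but 3 were lower at an unadjusted p under 0.05, and the median was -0.29 with wild-type spleen 1 alone as control. The spleens differed: 18 and 19 of 20 lay below every wild-type spleen in plckGAPDH spleens 547 and 508, 11 in spleen 343 and 3 in the unnumbered spleen, where 6 lay above every wild-type spleen. Over all genes, the shares below every wild-type spleen were 28.8% in 343, 31.2% in 547, 31.9% in 508 and 25.4% in the unnumbered spleen. Cd3g, a subunit of the T-cell receptor complex, stood at 50.6, 153 and 96.4 against 53.6, 33.5, 37.96 and 185. Txk, a Tec-family kinase, was lower in each plckGAPDH spleen, at 6.16, 12.9 and 10.7 against 2.23, 1.76, 0.531 and 3.49 (-1.91, SE 0.40, limma FDR 0.0867). Follicular helper (median 0.13) and regulatory T-cell genes (median -0.19) had medians whose sign changed when single spleens were left out. In the unnumbered spleen, 9 of 15 regulatory and 10 of 19 follicular helper genes lay above every wild-type spleen.

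NK-cell receptor genes were among the lower calls, whereas the groups overlapped for several genes shared with cytotoxic T cells. Of 22 cytotoxic and NK genes, 20 were tested, and 2 passed the FDR. At an unadjusted p under 0.05, 10 were lower, against 5.85% of all genes. The groups did not overlap for 8, all lower, against 6.44% of all genes. Members whose lack of overlap the filter fixed were not taken out of this count. Klre1, an NK inhibitory receptor chain, stood at 5.38, 5.84 and 9.98 against 0.298, 1.01, 0 and 1.62, and fell by 2.27 (SE 0.38, limma FDR 0.0360). Klrc2, which encodes NKG2C, stood at 6.78, 4.68 and 4.10 against 1.05, 0.449, 0.0860 and 0.858, and fell by 1.96 (SE 0.29, limma FDR 0.0221). The Klr genes are close copies of each other and Klra13-ps is a pseudogene, so the assignment of reads among them is uncertain. The 3 defining NK markers Ncr1, Klrb1c and Klrd1 summed to 34.9, 33.1 and 69.4 against 5.58, 3.41, 1.15 and 9.85. The sums did not overlap, nor did Ncr1 and Klrd1, but Klrb1c did. Klrb1c stood at 0.955 in wild-type spleen 4, below plckGAPDH spleen 343 (1.22) and the unnumbered spleen (1.33). Most of the sum in wild-type spleen 4 was Klrd1, at 30.7. Ncr1, the activating receptor NKp46, stood at 9.95, 1.36 and 14.6 against 0.128, 0.0310, 0.0860 and 0.790 (-2.59, SE 0.61, limma FDR 0.133). It too passed the filter only through the wild-type spleens, so its lack of overlap carries no weight. Ccl5 and Nkg7, expressed by NK and effector T cells alike, overlapped: Ccl5 stood at 133, 713 and 93.5 against 314, 121, 11.3 and 418. The list median was -1.01, and -0.17 with wild-type spleen 1 as the sole control, and all 20 tested genes lay below every wild-type spleen in plckGAPDH spleen 508.

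Myeloid and dendritic genes depended on the library. Of 18 tested dendritic-cell genes, 7 were lower at an unadjusted p under 0.05, against 5.85% of all genes. The groups did not overlap for 7, all lower, against 6.44% of all genes. The 7 included Cd209a, whose lack of overlap the filter fixed, and such genes were left in both shares. The list median was -0.67, and it was -0.29 without wild-type spleen 4 and -1.05 with a pseudocount of 0.1. With wild-type spleen 4 left out, the 7 at an unadjusted p under 0.05 became 3. Cd209a, a lectin of monocyte-derived dendritic cells, stood at 3.93, 1.13 and 7.56 against 0.128, 0.426, 0.0860 and 0.391 (-1.84, SE 0.44, limma FDR 0.138). It passed the filter only through the wild-type spleens, so its lack of overlap carries no weight. Clec9a, the dead-cell receptor of cross-presenting dendritic cells, stood at 1.91, 4.20 and 4.22 against 1.10, 0.495, 0.516 and 1.29. Macrophage genes had a median of -0.58 that turned to 0.63 with wild-type spleen 1 as the sole control, and neutrophil genes a median of 0.95 that turned to -1.001. S100a8, a granule protein of neutrophils, ran from 1.84 in wild-type spleen 4 to 1061 in wild-type spleen 1, a range that held all 4 plckGAPDH spleens. Erythroid genes (median 0.33), platelet genes (-0.05) and exocrine pancreas genes (-0.59) likewise changed sign when a single spleen was left out. Of 28 endothelial, 21 stromal and 29 matrix genes, 5, 10 and 2 were tested, so the supporting tissue was barely sampled.

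Proliferation genes had positive fold changes as a group, although none passed the FDR in the fit of all 7 spleens without weights. Of 35 DNA replication genes, all tested, 34 were positive with a median of 0.91 (0.72 to 1.14 without single spleens), 22 were higher at an unadjusted p under 0.05, against 6.4% of all genes, and 13 did not overlap, against 6.46%. Of 34 mitosis genes, all tested, 33 were positive with a median of 1.34 (1.06 to 1.69), and 27 were higher at an unadjusted p under 0.05, but the groups did not overlap for 3. These counts moved with single libraries. They were 9 of 35 and 9 of 34 with wild-type spleen 5 left out, 10 and 12 with wild-type spleen 1 left out, and 14 and 16 with plckGAPDH spleen 547 left out. Without the unnumbered spleen 15 mitosis genes remained, and with wild-type spleen 1 as the sole control the counts were 5 and 12. With sample quality weights 13 replication and 18 mitosis genes passed the FDR, and without plckGAPDH spleen 343 1 and 2 did. Mki67, the proliferation antigen Ki-67, stood at 14.4, 30.7 and 5.19 against 30.4, 113, 61.0 and 57.9 (2.06, SE 0.61, limma FDR 0.223). Top2a, the topoisomerase that untangles chromosomes, stood at 18.3, 38.7 and 9.68 against 32.8, 138, 72.7 and 99.1 (1.93, SE 0.58, limma FDR 0.230). In both, plckGAPDH spleen 343 lay below wild-type spleen 4. Uhrf1, which carries DNA methylation through replication, did not overlap, at 5.31, 8.70 and 3.79 against 14.4, 27.1, 15.7 and 22.6 (1.61, SE 0.32, limma FDR 0.0722). Aurkb, the chromosomal passenger kinase, stood at 3.96, 6.995 and 3.39 against 7.96, 33.7, 14.99 and 18.6 (1.66, SE 0.45, limma FDR 0.180). The exceptions were Pttg1, securin, with a fold change of -0.57, and Pold1, a polymerase delta subunit, with -0.08.

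The share of proliferation genes outside the wild-type range differed by spleen. In plckGAPDH spleens 547, 508 and the unnumbered spleen, 32, 29 and 33 of 34 mitosis genes lay above every wild-type spleen, and 35, 31 and 33 of 35 replication genes did. In spleen 343 the numbers were 3 and 13. Over all genes the shares above every wild-type spleen were 26.1% in 343, 39.99% in 547, 37.9% in 508 and 30.7% in the unnumbered spleen. G1 cyclins, inhibitors and E2F factors were less uniform, with 15 of 22 tested positive and a median of 0.48. Cdk4, the G1 kinase, stood at 31.3, 30.9 and 33.7 against 32.2, 78.3, 41.8 and 56.6.

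**Figure D2:**
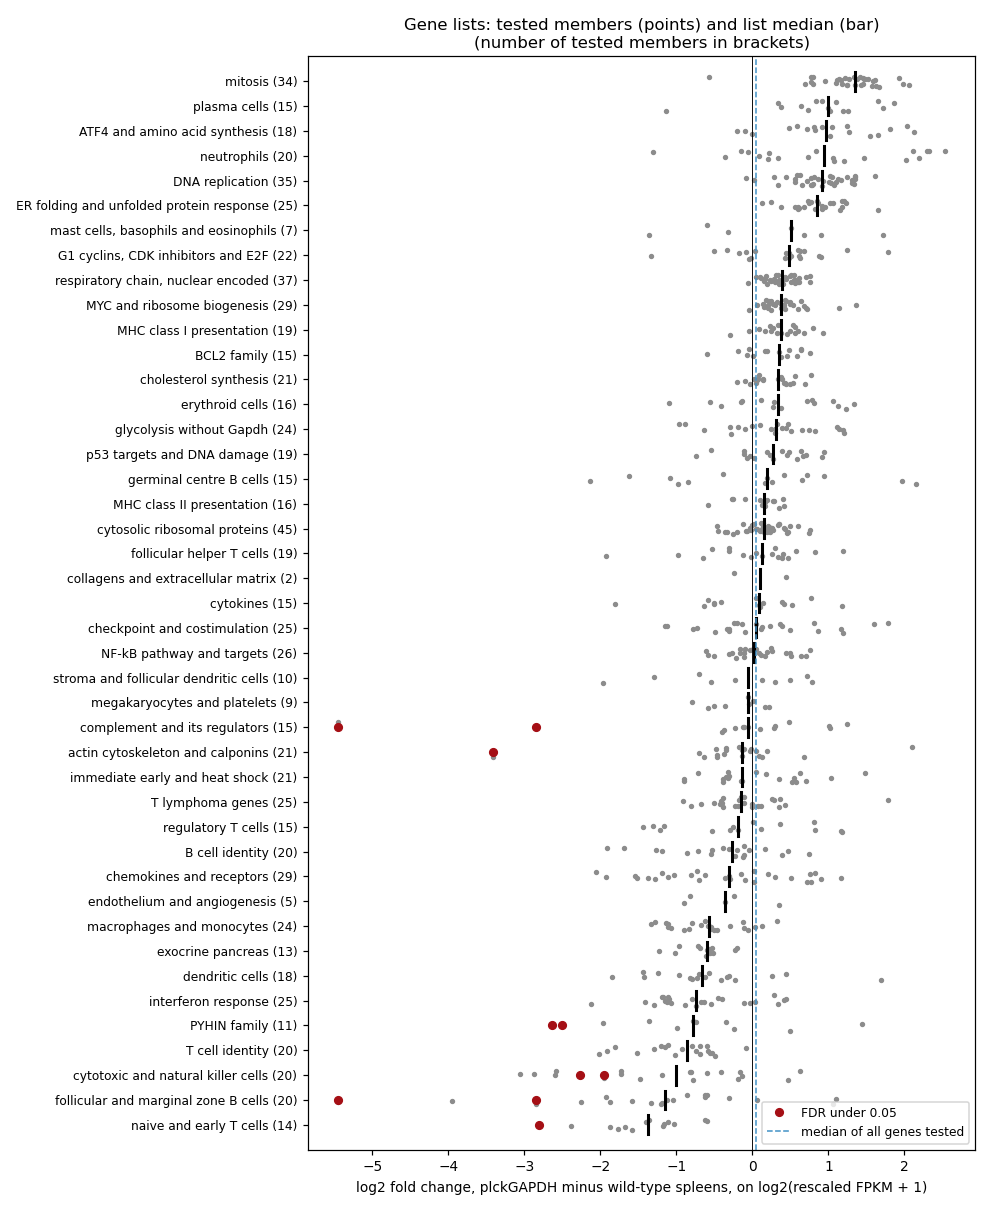
Log2 fold changes of the tested members of 43 gene lists (grey points; red where the limma FDR was under 0.05) with each list's median (bar) and the median of all genes tested (dashed line, 0.04). The lists run from naive and early T cells (median -1.38) to mitosis (median 1.34).

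Metabolic and biosynthetic lists had positive medians with few genes past any threshold. Of 24 glycolytic genes other than Gapdh, 5 were higher and 3 lower at an unadjusted p under 0.05, with a median of 0.31. Over all genes these shares were 6.4% and 5.85%. Leaving out single spleens gave 2 higher genes (wild-type spleen 1) to 8 (plckGAPDH spleen 343), and 1 lower gene without wild-type spleen 4 or plckGAPDH spleen 343, 508 or the unnumbered one. Pkm, pyruvate kinase, stood at 83.3, 116 and 80.5 against 139, 203, 246 and 295 (1.20, SE 0.32, limma FDR 0.172), and Tpi1, triosephosphate isomerase, at 26.6, 37.0 and 24.4 against 43.0, 85.1, 51.6 and 108 (1.19, SE 0.36, limma FDR 0.230). Neither overlapped. Aldoa, the aldolase upstream of Gapdh, overlapped, at 115, 124 and 122 against 108, 154, 203 and 211. Ldhb, the lactate dehydrogenase subunit of oxidative tissues, named after its values were seen, stood at 2.94, 4.79 and 2.80 against 1.13, 0.696, 1.19 and 2.39 (-0.96, SE 0.29, limma FDR 0.232).

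Nuclear-encoded respiratory chain genes were positive in 36 of 37 cases with a median of 0.39, yet 1 was higher at an unadjusted p under 0.05 and none was free of overlap. Ribosome biogenesis and MYC target genes were positive in 28 of 29 cases with a median of 0.38, with none free of overlap. In both lists spleen 343 went the other way: 21 of 37 respiratory and 19 of 29 biogenesis genes lay below every wild-type spleen in 343, against 28.8% of all genes, whereas 35 and 28 lay above every wild-type spleen in 547. Odc1, the rate-limiting enzyme of polyamine synthesis, stood at 19.96, 29.3 and 21.5 against 22.3, 107, 56.6 and 104 (1.36, SE 0.53, limma FDR 0.335). Cytosolic ribosomal proteins had a median of 0.15 that changed sign without wild-type spleen 4.

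Amino acid synthesis genes of the ATF4 pathway had a median of 0.96 over 18 tested of 25. Of these, 7 were free of overlap, all higher, against 6.46% of all genes. At an unadjusted p under 0.05, 6 were higher, against 6.4% of all genes. The median was 0.57 without plckGAPDH spleen 508, and the 6 became 2 with wild-type spleen 1 left out, 3 with any of wild-type spleens 4 and 5 and plckGAPDH spleen 547 left out, and 10 with 343 left out. Psat1, phosphoserine aminotransferase of the serine pathway, stood at 4.84, 8.89 and 6.76 against 14.5, 22.4, 38.8 and 35.3 (1.81, SE 0.37, limma FDR 0.0793), and Phgdh, which opens that pathway, at 20.2, 14.97 and 25.1 against 35.1, 86.8, 121 and 44.9 (1.65, SE 0.44, limma FDR 0.177). The 2 were higher in each plckGAPDH spleen than in any wild-type spleen. All 25 endoplasmic reticulum folding genes were positive with a median of 0.84, which was 0.30 without plckGAPDH spleen 508. In spleens 508 and 547, 25 and 23 of the 25 lay above every wild-type spleen, and in spleen 343, 16 lay below. Hsp90b1, the folding chaperone GRP94, stood at 189, 215 and 82.8 against 98.02, 309, 1274 and 188. The 15 plasma cell genes tested had a median of 0.999, which was 0.21 without spleen 508. In spleens 508 and 547, 15 and 13 of them lay above every wild-type spleen, and in spleen 343, 9 lay below. The plasma cell markers Sdc1, Prdm1, Jchain and Xbp1 summed to 179, 256 and 221 against 49.8, 133, 5494 and 90.9. Jchain, the largest part in the wild-type spleens, stood at 123, 177 and 179 against 9.81, 14.5, 4980 and 31.8. In spleen 547 Sdc1, Prdm1 and Xbp1 lay above every wild-type spleen.

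**Figure D3:**
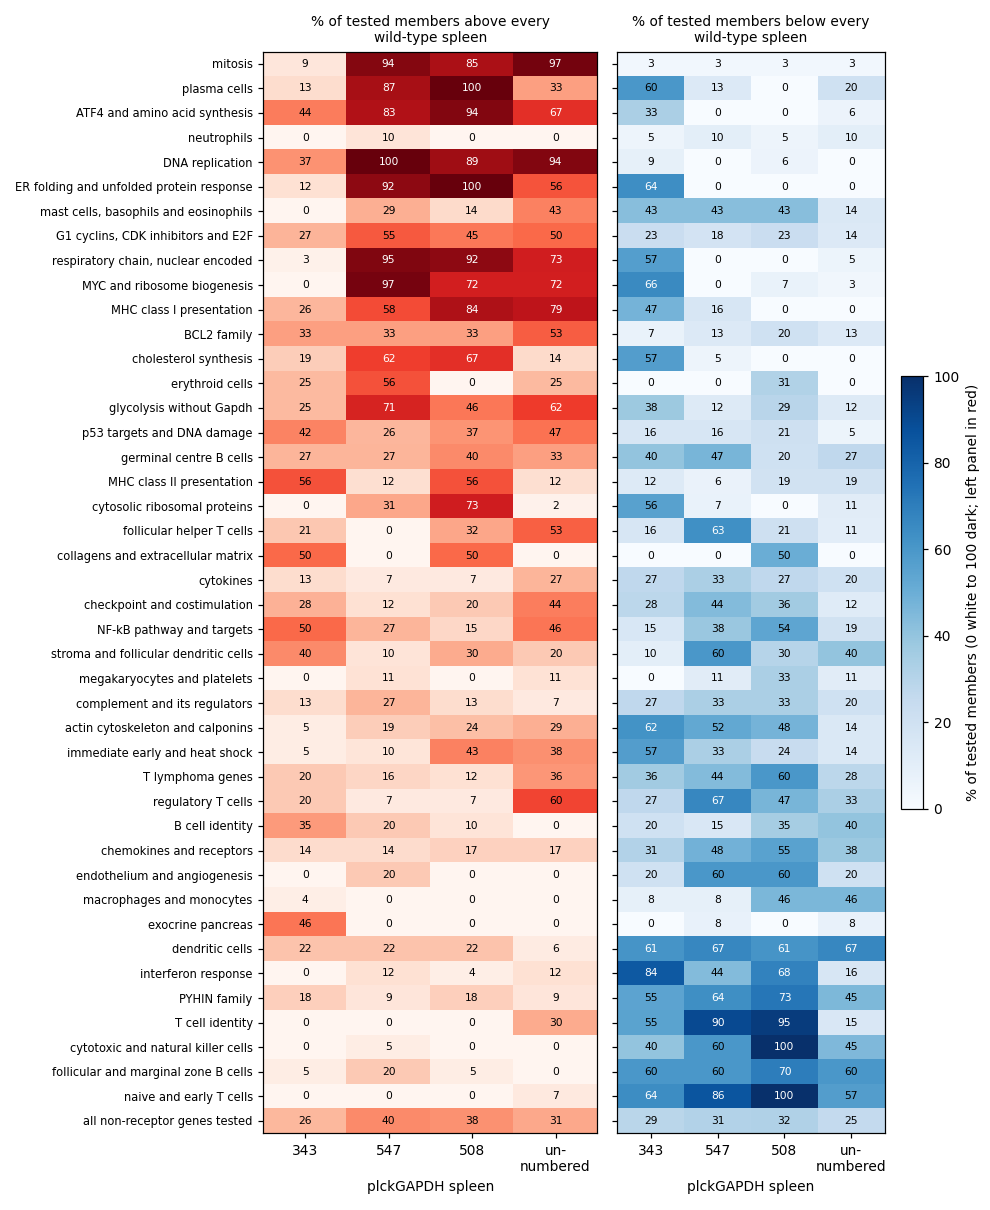
Percentage of tested members of each list above every wild-type spleen (left, red) and below every wild-type spleen (right, blue) in each plckGAPDH spleen, with all genes tested in the last line. Spleen 343 has 9% of mitosis genes above the wild-type range against 94% in 547, 85% in 508 and 97% in the unnumbered spleen.

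Interferon response genes had mostly negative and class I presentation genes mostly positive fold changes. Of 25 tested interferon response genes, 20 were negative with a median of -0.74. At an unadjusted p under 0.05, 5 were lower, or 20% against 5.85% of all genes. The groups did not overlap for 2, both lower, a share of 8% near the 6.44% of all genes. The 5 became 2 when wild-type spleen 4 or 5 or plckGAPDH spleen 508 was left out, 3 when 343 was, 9 when the unnumbered spleen was and 12 when wild-type spleen 1 was. That median moved to -0.46 when wild-type spleen 4 was dropped and turned to 0.20 with wild-type spleen 1 as the sole control, and wild-type spleens 4 and 5 were the interferon-high wild types: Ifit3, an interferon-induced antiviral protein, stood at 3.03, 19.5 and 15.4 against 1.64, 0.673, 0.860 and 4.02. MHC class I presentation genes were positive in 17 of 19 cases with a median of 0.37, which was 0.13 without plckGAPDH spleen 508, and 9 of 19 lay below every wild-type spleen in spleen 343. Psmb9, an immunoproteasome subunit, stood at 53.9, 56.8 and 48.2 against 96.6, 103, 118 and 90.0 (0.93, SE 0.20, limma FDR 0.105), and Tap1, a peptide transporter, at 62.0, 79.4 and 56.6 against 93.8, 111, 142 and 117 (0.80, SE 0.24, limma FDR 0.230), both without overlap. B2m, the class I light chain, overlapped. MHC class II genes had a median of 0.16 that changed sign without wild-type spleen 4, and none passed an unadjusted p of 0.05.

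The PYHIN family, whose proteins sense DNA or regulate transcription after interferon and whose genes form a cluster on chromosome 1, held 2 of the 20 lower calls. BC094916, now Ifi214, stood at 11.1, 18.7 and 16.4 against 2.47, 1.18, 0.359 and 3.30, and fell by 2.64 (SE 0.41, limma FDR 0.0274). Pydc3, now Ifi208, stood at 8.14, 17.3 and 15.9 against 1.62, 0.867, 0.774 and 3.49, and fell by 2.50 (SE 0.39, limma FDR 0.0289). Of 11 tested members 9 were negative and 5 did not overlap, all lower, against 6.44% of all genes. Ifi203 was among the 5, at 73.9, 88.5 and 59.6 against 30.5, 22.95, 17.8 and 48.4 (-1.36, SE 0.35, limma FDR 0.168). The family was not uniform. Mnda, now Ifi211, stood at 5.88, 19.4 and 7.21 against 19.95, 13.2, 50.3 and 41.8 (1.44, SE 0.55, limma FDR 0.326), and Pydc4, now Ifi213, at 23.4, 42.1 and 29.5 against 57.8, 43.1, 56.4 and 25.6 (0.49, SE 0.34, limma FDR 0.560). The family median was -0.78, and -0.30 without wild-type spleen 4.

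The promoters of these 4 genes are shown because 2 are lower calls and 2 neighbours in the same cluster have positive fold changes. Each is the 250 bases before the start in the RefSeq promoter table of GRCm38.p6, with the core of the interferon-stimulated response element, GAAA, any 2 bases and GAAA again, searched on both strands, in capitals.
BC094916 (Ifi214), chr1:173535958-173536207, minus strand: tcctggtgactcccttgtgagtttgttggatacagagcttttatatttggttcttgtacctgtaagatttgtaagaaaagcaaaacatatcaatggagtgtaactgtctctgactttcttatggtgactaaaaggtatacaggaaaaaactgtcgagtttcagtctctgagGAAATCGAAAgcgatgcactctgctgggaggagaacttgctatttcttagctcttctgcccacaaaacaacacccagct
Pydc3 (Ifi208), chr1:173673415-173673664, plus strand: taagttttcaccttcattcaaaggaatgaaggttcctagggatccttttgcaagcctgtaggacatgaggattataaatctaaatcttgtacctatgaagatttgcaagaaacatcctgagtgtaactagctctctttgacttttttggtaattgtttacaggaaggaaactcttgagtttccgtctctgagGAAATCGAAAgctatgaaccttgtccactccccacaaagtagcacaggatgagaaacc
Mnda (Ifi211), chr1:173913047-173913296, minus strand: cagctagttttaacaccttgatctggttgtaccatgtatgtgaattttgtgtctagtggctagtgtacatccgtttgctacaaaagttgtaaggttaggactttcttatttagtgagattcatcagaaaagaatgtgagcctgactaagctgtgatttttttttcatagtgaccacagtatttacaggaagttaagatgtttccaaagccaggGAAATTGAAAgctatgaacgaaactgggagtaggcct
Pydc4 (Ifi213), chr1:173599273-173599522, minus strand: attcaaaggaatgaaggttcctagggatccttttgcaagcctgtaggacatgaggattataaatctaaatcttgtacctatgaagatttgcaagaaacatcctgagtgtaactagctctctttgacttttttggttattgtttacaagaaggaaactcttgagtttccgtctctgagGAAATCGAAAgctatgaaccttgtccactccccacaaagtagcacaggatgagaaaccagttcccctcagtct

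The element was found in 8 of 10 PYHIN members with a promoter in the table and in 12 of 19 interferon response genes, against 3.46% of all 27025 promoters of that length. It was found in both pairs above, whichever the direction of the gene, so its presence did not separate lower from higher members. The Pydc3 and Pydc4 windows share an unbroken run of 135 bases. These windows lie before the start, and the likeness of the transcripts was not measured. If the transcripts are near copies too, reads may be split between them, which makes their separate values uncertain. Among all tested genes lower at an unadjusted p under 0.05 with a promoter in the table, 7.33% held the element, against 2.25% of those higher. Of the called genes, 2 of 18 lower and 0 of 5 higher held it, the 2 being the PYHIN genes shown. A match is a description of the letters and not evidence of binding.

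For the replication genes, the E2F elements TTTCCCGC and TTTGGCGC, searched on both strands, were found in 6 of 29 members with a promoter and in 0 of 29 mitosis genes, against 1.51% of all promoters and 3.11% of tested genes. Mcm6, a subunit of the replicative helicase, had 2 matches and is shown for that reason. It stood at 21.2, 38.2 and 18.8 against 31.0, 67.8, 42.0 and 61.3 (0.93, SE 0.36, limma FDR 0.329).
Mcm6, chr1:128359706-128359955, minus strand: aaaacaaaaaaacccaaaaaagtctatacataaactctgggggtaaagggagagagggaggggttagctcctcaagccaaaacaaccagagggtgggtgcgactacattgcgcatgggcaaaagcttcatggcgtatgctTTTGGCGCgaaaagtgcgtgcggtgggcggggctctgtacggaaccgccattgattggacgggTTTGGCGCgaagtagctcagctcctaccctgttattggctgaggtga

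Of 25 checkpoint and costimulation genes, 2 were higher without overlap, a share near the 6.46% of all genes. Tnfsf9, the ligand of 4-1BB, stood at 0.593, 2.04 and 0.521 against 6.18, 5.92, 4.82 and 3.19 (1.60, SE 0.32, limma FDR 0.0754). Cd70, the ligand of CD27, stood at 0.155, 0 and 0.0977 against 3.75, 3.62, 4.06 and 0.713 (1.78, SE 0.40, limma FDR 0.112). The list had a median of 0.05. The NF-kB list had a median of 0.02 with 1 of 26 tested genes higher and 1 lower at an unadjusted p under 0.05. Lmo7, an actin-associated LIM-domain protein, did not overlap either, at 2.67, 1.56 and 0.228 against 7.74, 5.61, 17.5 and 7.29 (2.10, SE 0.46, limma FDR 0.105). Among 25 tested T lymphoma genes none passed the FDR, and 17 were negative with a median of -0.16. At an unadjusted p under 0.05, 1 was lower, or 4% against 5.85% of all genes, and none was higher. Without overlap, 5 were lower, 20% against 6.44% of all genes, and 1 was higher. The higher one, Cdkn2a, the tumour suppressor locus of p16 and p19, stood at 0.237, 1.28 and 0.130 against 1.53, 1.42, 24.2 and 3.31 (1.79, SE 0.80, limma FDR 0.396). Lists of p53 targets (median 0.27), BCL2 family (0.35), cholesterol synthesis (0.34), cytokines (0.09), mast cells (0.51), complement (-0.06), actin (-0.13), immediate early genes (-0.13) and chemokines (-0.31) held no further called gene, apart from Cr2 and Cd55 in complement and Cnn3 in actin.

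The plckGAPDH spleens differed among themselves more than the wild-type spleens did. The median SD over spleens was 0.389 on the log2 scale in plckGAPDH and 0.256 in wild type, and 70.1% of genes had the larger SD in plckGAPDH. Spleens 547 and 508 had 720 and 702 genes at least 1 log2 unit above the highest wild-type spleen, against 179 in spleen 343 and 302 in the unnumbered spleen. Of genes this far above, 1005 were so in 1 spleen and 10 in all 4, and of those this far below, 511 were so in 1 spleen and 25 in all 4. Across the tested genes, as a description, Pearson's r was highest between plckGAPDH spleen 343 and wild-type spleen 1 (0.928), nearly tied with wild-type spleens 1 and 5 (0.927). It was lowest between plckGAPDH spleen 547 and wild-type spleen 4 (0.828). By Spearman's rho the order of the first pairs was reversed, at 0.916 and 0.921, and the lowest pair was the same (0.803). Spleen 343 and wild-type spleen 1 were the 2 with exocrine pancreas markers, whose part in the likeness of these 2 spleens was not tested.

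**Figure D4:**
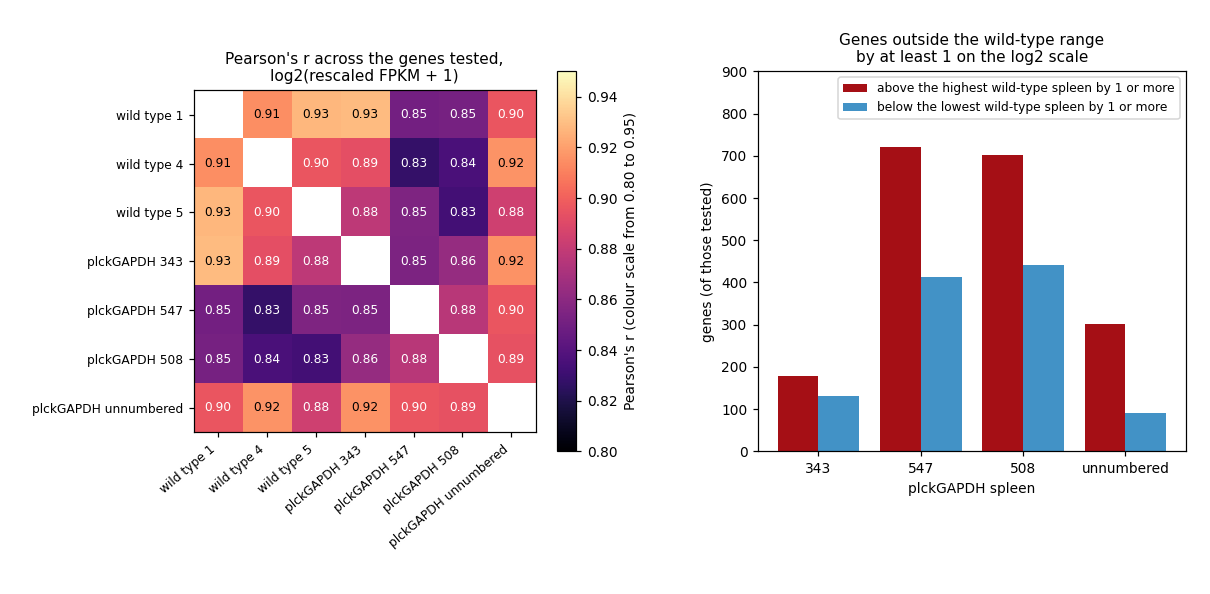
Left, Pearson's r between spleens across the tested genes (colour scale from 0.80 to 0.95). Right, number of genes at least 1 log2 unit above the highest or below the lowest wild-type spleen: 720 and 414 in spleen 547 against 179 and 131 in spleen 343.

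Some genes were high in 1 spleen alone, defined as 10 rescaled FPKM or more and at least 8 times any other spleen. There were 31 in plckGAPDH spleen 508, 17 in 547, 4 in 343, all small RNAs, and 2 in the unnumbered spleen, against 18 in wild-type spleen 5, 6 in spleen 4 and 1 in spleen 1. Spleen 508 was led by secreted-antibody genes. Ighg2c, the IgG2c heavy-chain constant gene, stood at 85221 there and at 33.2 to 629 in the other 6, Ighe, that of IgE, at 593 against at most 40.8, and Jchain, which joins antibody multimers, at 4980 against at most 179. The protease inhibitor gene Slpi stood at 2770 in spleen 508 against at most 108 elsewhere. The plasma cell markers Sdc1 and Prdm1 were also highest there, at 55.5 and 18.6. Named after their values were seen, the metallothionein gene Mt1 (296 against at most 12.4), the angiogenic factor gene Vegfa (23.9 against at most 1.30) and the immediate early gene Fos (85.4 against at most 3.59) belonged to the same spleen.

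Spleen 547 had a different set. Besides 4 transcripts known by clone or locus names, of which 1810046K07Rik stood at 91.4 against at most 2.72, its 6 highest included Nid1, the basement membrane protein nidogen 1, at 38.2 against at most 3.63, and C2, complement component 2, at 34.3 against at most 3.67. The unnumbered spleen alone had Enpp6, a choline phosphodiesterase gene, at 21.8 against at most 1.16. Single-spleen genes occurred in wild-type spleens too: the globins and Alas2 in spleen 5, and Ighg1 at 2912 against at most 21.1, with Rgs13, a germinal centre regulator of G-protein signalling, at 39.4 against at most 3.01, in spleen 4. With 1 spleen behind each of these values there is no replicate check.

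**Figure D5:**
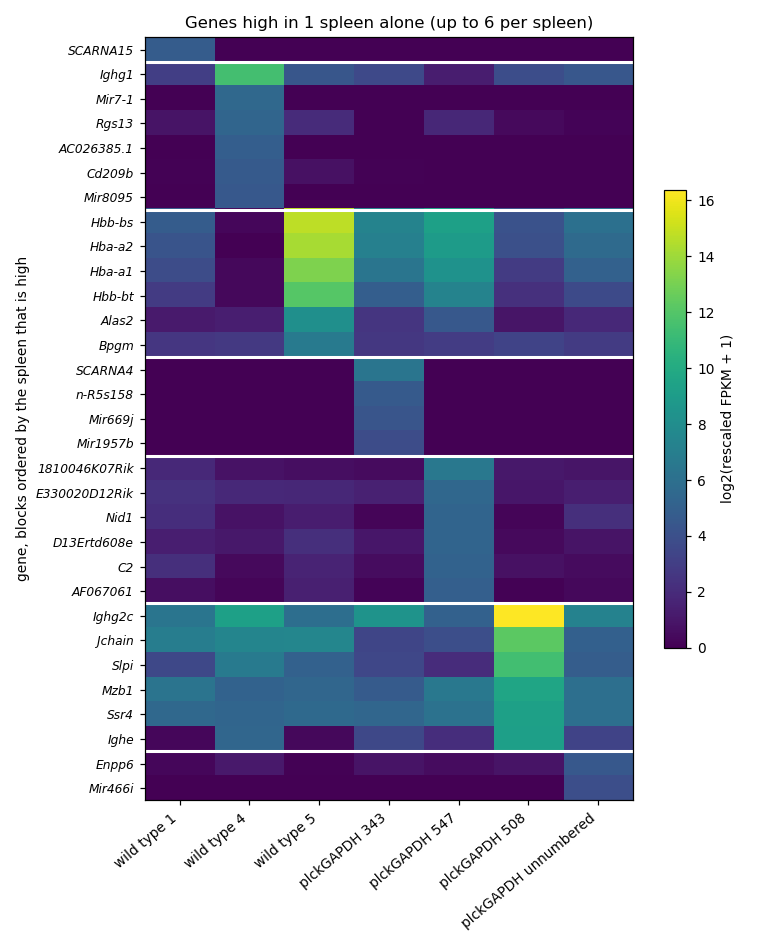
Log2(rescaled FPKM + 1) in each spleen of up to 6 genes per spleen that were high in that spleen alone. Ighg2c, Jchain, Slpi, Mzb1, Ssr4 and Ighe stand out in plckGAPDH spleen 508, and globin genes in wild-type spleen 5.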

How the data were processed

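Total RNA libraries (TruSeq Stranded Total RNA, paired reads of 75 bases) were made from 500 ng of RNA, per the labels' protocols. The submitters' processing notes list Bowtie2 2.2.6, RSEM, Subread 1.5.0-p3 with its featureCounts, STAR 2.4.0a and the build mm10; no label or header ties the values to any of these. The authors deposited 1 table of FPKM per gene with 2 decimals. A depth per library was estimated from the FPKM steps that 1 fragment is worth, and 80.6 to 85.4% of the low values tested lay within 0.1 fragment of a whole number; no intervals were derived from it. FPKM were divided by median-of-ratios factors (0.697 to 1.29) from the 13991 kept genes above 0 in all 7 spleens. Genes at 1 rescaled FPKM or more in 3 spleens were fitted as log2(value + 1) with limma 3.58.1 in R 4.3.3 (intensity trend, two-sided, Benjamini-Hochberg over 12608 genes, threshold 0.05), and the script was tested on simulated data.

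Groups follow the labels. One plckGAPDH column without an animal number was assigned to the group only, and the sample labelled 331 has no column bearing its number. Nothing says how the animals were related, so p-values refer to spread among samples, which may be technical. The 2 lymph node libraries entered 1 alternative only. The members and the 43 lists were chosen with earlier results of these data known, so no list is independent evidence. Lists are described by counts and medians, with no test. Named genes were the 12 largest rises and falls among calls with a mean log2 of at least 2 and no overlap (filled by smallest p), for each list the 2 of smallest p and the 2 of highest mean, for each spleen the 6 highest of its own genes, Gapdh and cell-type markers. Positions are from GENCODE M21 (GRCm38) and 1 list symbol, Fdcsp, was not matched. The 17 alternatives changed the scaling, pseudocount, filter, genes or libraries in the fit, trend and weights, or left out libraries. The values of 2 genes that entered the counts are not reported here.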

Additional observations from a re-analysis of the deposited data

Results flagged for a closer look

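In 173 named genes, the 4 plckGAPDH spleens were examined for 1 spleen far from the other 3, by Dixon's criterion. Chance alone gives about 1 in 20 for independent, normally distributed values, and 12 genes met the criterion. Whether that rate holds for these chosen genes was not tested. Spleen 508 was apart for 4 of them: Prkcsh, a subunit of glucosidase II, at 40.9 rescaled FPKM against 25.9 to 27.8 in the other 3, Pou2af1, a B-cell coactivator, at 274 against 58.9 to 76.2, and the ribosomal protein gene Rps27 at 3765 against 2314 to 2508 were high, and Stap1 at 4.86 against 14.2 to 17.3 was low. Spleen 547 was low for Ell3, at 0.503 against 1.82 to 2.02, and for Ccng1, a p53 target, at 27.5 against 47.7 to 52.3, and high for Il5ra, an eosinophil receptor, at 4.54 against 0.172 to 0.442. The unnumbered spleen was high for S1pr1, at 39.0 against 19.2 to 20.3, and for the lymphotoxin gene Ltb, at 126 against 79.1 to 82.4, and low for Cd70, at 0.713 against 3.62 to 4.06. Spleen 343 was high for the pancreatic genes Amy2a5, at 11.3 against 0.102 to 0.588, and Cela2a, at 44.7 against 0 to 0.731, while wild-type spleen 1 held 43.3 and 68.8 of them.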

How the results depend on the processing

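The 8 higher and 20 lower genes became 16 higher without rescaling, 8 lower with a pseudocount of 0.1, 2 and 2 without the filter, 0 and 0 with only kept genes in the fit (117 called genes of the excluded classes left the adjustment), and 234 and 143 with sample quality weights, of which wild-type spleen 1 had the largest (4.1 against 0.494 to 2.38). With wild-type spleen 1 as the only wild-type spleen, assumed to vary like the others, they were 0 and 0, with 324 genes at an unadjusted p under 0.05. Leaving out single spleens gave 0 to 46 higher genes (most without plckGAPDH spleen 343) and 0 to 20 lower genes, with 0 and 0 without wild-type spleen 5, 1 and 3 without spleen 1 and 2 and 11 without spleen 4, and 5 higher without plckGAPDH spleen 508 and 10 lower without 547. The cause was not tested. Over 17 alternatives, no named gene called in the whole fit reversed its direction, and 680 list medians moved by less than the spread over spleens while 51 moved by more. No paired analysis was possible because the wild-type and plckGAPDH animals share no replicate numbers. Precision is limited by 3 and 4 spleens, and low FPKM by the 2 decimals deposited.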
